A study of Mus musculus with 2 samples.

Results

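The far intergenic regions are accessible chromatin regions of mouse erythroid progenitors that lie outside every annotated gene and over 100 kb from every protein-coding start. They were chosen by position alone, from GENCODE M21 on mm10, among the autosomal regions of the peak list that the authors thresholded on IDR, the irreproducible discovery rate, which measures how well peaks repeat between peak sets. By this rule 329 of 23779 autosomal regions were members (1.38%), made by merging 587 of the 50003 records of the list, and 165 members were a single record. A region took the highest fold of its records, where fold is the authors' enrichment of a peak over the caller's local background.

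The cells were CFU-E, primary erythroid progenitors that depend on erythropoietin, from adult male C57BL/6J mice of 5 to 6 weeks, with no allele or treatment named. ATAC-seq, which uses the transposase Tn5 to insert adapters into open DNA, gave their accessibility. The libraries, of 50000 cells each, are labelled as biological replicates 1 and 2 from separate biosamples and carry 1 donor identifier. They form 1 group, so no condition is compared, and the read depth behind the lists is unknown.

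Enhancers, the stretches of DNA from which transcription factors act on a promoter, often lie in introns and near genes, but some act across long stretches with no coding gene. In erythroid cells many are bound by GATA1, often with TAL1 at a CTG element set a fixed space before the GATA site, and by KLF1 at CACCC-type sites. CTCF is the protein that anchors chromatin loops and marks insulators.

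The windows below are 101 bases of the mm10 plus strand around a region's strongest summit, from the RefSeq copy of that genome. The first 8 show the GATA matches that the text counts and come from the 5 largest clusters of members and from members beside Kit, Mycn and Cited2, with the whole CTG and GATA pair in capitals where the window holds one and otherwise the GATA match. Further GATA matches outside a pair stay in lower case.
chr13:111912072-111912172, between Map3k1 and Ankrd55: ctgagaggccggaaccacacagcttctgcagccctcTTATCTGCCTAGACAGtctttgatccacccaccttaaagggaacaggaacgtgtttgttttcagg
chr5:64588078-64588178, between Tbc1d1 and Klf3: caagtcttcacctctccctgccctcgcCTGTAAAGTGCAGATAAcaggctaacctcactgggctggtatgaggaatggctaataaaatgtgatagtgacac
chr5:51841079-51841179, between Ppargc1a and Dhx15: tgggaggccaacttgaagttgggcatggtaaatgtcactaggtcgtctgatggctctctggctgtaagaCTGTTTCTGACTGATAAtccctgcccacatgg
chr1:193678595-193678695, between Camk1g and Plxna2: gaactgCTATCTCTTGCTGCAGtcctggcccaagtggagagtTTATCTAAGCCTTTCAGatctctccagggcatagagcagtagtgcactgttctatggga
chr16:93197439-93197539, between Runx1 and Setd4: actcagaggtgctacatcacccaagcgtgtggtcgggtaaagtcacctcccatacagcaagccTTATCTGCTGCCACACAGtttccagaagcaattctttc
chr5:75460597-75460697, between Pdgfra and Kit: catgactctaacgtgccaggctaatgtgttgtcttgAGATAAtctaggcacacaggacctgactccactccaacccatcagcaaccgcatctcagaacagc
chr12:12496609-12496709, between Fam49a and Mycn: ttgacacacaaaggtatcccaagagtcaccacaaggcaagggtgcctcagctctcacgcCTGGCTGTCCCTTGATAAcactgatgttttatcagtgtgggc
chr10:16538530-16538630, between Nmbr and Cited2: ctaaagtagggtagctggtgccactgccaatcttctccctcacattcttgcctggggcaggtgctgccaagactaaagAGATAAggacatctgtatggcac
The next pair shows the CTCF consensus, in capitals.
chr3:60763014-60763114, between Mbnl1 and P2ry1: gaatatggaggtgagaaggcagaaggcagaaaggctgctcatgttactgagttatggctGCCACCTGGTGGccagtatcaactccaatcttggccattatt
chr13:119283573-119283673, between Fgf10 and Nnt: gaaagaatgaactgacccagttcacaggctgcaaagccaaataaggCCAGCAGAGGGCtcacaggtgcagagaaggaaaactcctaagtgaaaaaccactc
The last pair comes from the members of highest fold and shows bases that align to the mitochondrial genome, in capitals.
chr5:60042929-60043029, between Pcdh7 and G6pd2: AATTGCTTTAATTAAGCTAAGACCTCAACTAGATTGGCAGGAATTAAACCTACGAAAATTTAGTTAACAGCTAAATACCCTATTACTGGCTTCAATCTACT
chr12:97061505-97061605, between Flrt2 and Galc: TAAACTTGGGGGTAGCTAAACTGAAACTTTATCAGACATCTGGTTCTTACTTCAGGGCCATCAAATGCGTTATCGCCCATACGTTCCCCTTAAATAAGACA

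The members were thinly spread. The sequence that meets the rule came to 636 Mb of called autosomal bases (26.5%) and held 0.517 members per Mb, against 7.47 regions per Mb in the 571 Mb of intergenic sequence within 100 kb of a protein-coding start and over 1 kb from any gene's start. Chromosome 13 held 45 members (1.47 per Mb of eligible sequence), chromosome 5 held 35 and chromosome 1 held 33, while chromosome 19 held 0 in 10.4 Mb. The median distance to the nearest protein-coding start was 202 kb, 165 members lay beyond 200 kb, 41 beyond 500 kb and 11 beyond 1000 kb. The farthest region, chr1:102628168-102628385 between Cntnap5b and Cdh20, lay 2140.2 kb from Cdh20, with fold 12.1 (9.61 in replicate 1's own list and 11.3 in replicate 2's). It has a near-identical copy elsewhere, as defined below. Noncoding genes were closer: the median distance to a start of any annotated gene was 25.6 kb, and 31 members were over 100 kb from all of them.

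At the limit itself, the 3 members closest to a start were chr10:104042416-104043075 (100.2 kb from Gm21293, fold 5.88), chr10:104041857-104042337 (100.9 kb, fold 5.84) and chr14:54152506-54153140 (101 kb from Dad1, fold 5.69). The 3 regions just short of it were chr6:66052130-66052961 (99.9 kb from 4930544G11Rik, fold 9.92), chr2:39325183-39326888 (99.6 kb from Ppp6c, fold 9.53) and chr4:3067579-3068112 (99.5 kb from Vmn1r2, fold 4.18).

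The label of the cells could be checked on promoters. All 8 erythroid marker genes examined, among them Gata1, Klf1 and Epor, had a region within 1 kb of a start. So did 2 of 3 megakaryocyte markers (Itga2b and Gp9), and 0 of 5 myeloid, 0 of 4 lymphoid, 0 of 3 mast cell and 0 of 3 stem cell markers had one. Over all autosomal protein-coding genes the share was 46.9%. What other cells contribute to the members was not tested.

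In strength the members were close to other distal regions. The median fold was 7.31 (95% interval 6.80 to 7.80) in far intergenic regions, 6.71 (6.60 to 6.79) in intergenic regions within 100 kb, 6.36 (6.29 to 6.42) in introns and 9.17 (9.07 to 9.27) in promoter regions, which lie within 1 kb of any start. The median width was 509 bp (464 to 546), 443 bp (435 to 451), 438 bp (433 to 445) and 797 bp (788 to 807) in the same classes. The fold intervals of the far and the nearer intergenic regions lay just apart, and they overlapped, with a lower bound of 6.78 for the far regions, when members at noncoding starts were left out or when only protein-coding genes counted as genic. That lower bound was also 6.78 without mitochondrial matches and without near-identical copies, against the upper bound of 6.79 given above for nearer intergenic regions. The width intervals lay apart too, but overlapped when only protein-coding genes counted as genic (448 to 529 bp in far regions). Beyond 200 kb the far regions' intervals, 6.59 to 7.85 for fold and 415 to 543 bp for width, took in the medians of the rest, 6.74 and 446 bp. So did the width intervals of members over 100 kb from a start of any biotype (316 to 719 bp, against 447 bp) and of the upper 50% by fold (553 to 694 bp, against 632 bp). These intervals cover counting error over regions of 1 sample and no variation between animals.

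About as many members as nearer intergenic regions were found in both libraries' own lists. Of the 329, 209 (63.5%) overlapped replicate 1's own thresholded list, against 74.8% of all autosomal regions, and 186 (56.5%) overlapped replicate 2's, against 70.7%. Both lists held 168 members (51.1%, 45.5 to 56.6), against 65.2% of all autosomal regions and 51.7% (50.2 to 53.2) of the intergenic regions within 100 kb. Replicate 1 alone held 41 members, replicate 2 alone held 18, and neither held 102 (31.003%). The less strict older list of replicated peaks, with 190299 regions, held 319 members (97.0%, 94.5 to 98.5), against 99.0% of all autosomal regions and 98.5% of the nearer intergenic ones. The conservative list held 275 (83.59%), against 91.0%.

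Sharing moved with strength. In the lowest quartile of members by fold, 2.32 to 5.63, both lists held 11 of 83 (13.3%). In the highest quartile, 10.3 to 31.4, they held 79 of 82 (96.3%). The 168 shared members had a median fold of 9.98, with 9.27 by replicate 1's own list and 8.91 by replicate 2's, and the folds of a member differed by a median of 0.10 on the log2 scale between the libraries. Members in neither list had a median fold of 5.33 and a median width of 324 bp, against 645 bp for shared ones.

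**Figure D1:**
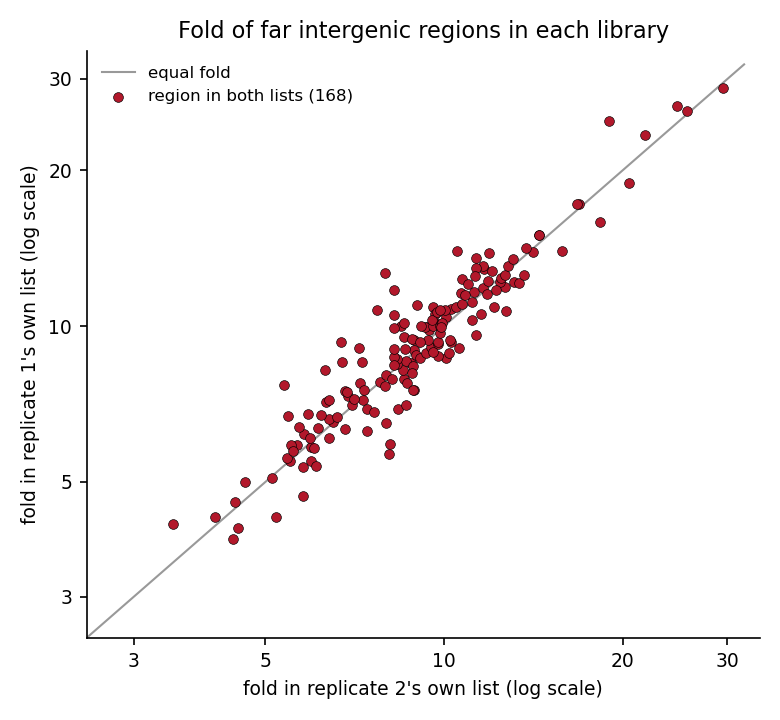
Fold of the 168 far intergenic regions held by both libraries' own lists, replicate 1 on the vertical and replicate 2 on the horizontal axis, both on log scales, with a line of equal fold. The points lie along the line, and 99 of 168 are higher in replicate 1.

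The libraries were counted as 1 sample. In records that fell in members, the −log10 p of matched peaks differed by a median of 0.30 on the log2 scale between the true replicates and by 0.35 between pseudoreplicates, the authors' parts of the pooled reads. Over all autosomal records the same medians were 0.31 and 0.40. By the SD of the same log2 ratio in members, the true replicates (0.902) and the pseudoreplicates (0.901) were alike. No SD over replicates is given.

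The 10 members absent from the older list were mostly weak and held by neither library's list. Both replicates held 1 of them, the region 2140.2 kb from Cdh20, replicate 2 alone held 1, and 8 were in neither list. Their median fold was 5.71 and their median width 219 bp, and 5 of 10 had a near-identical copy elsewhere in the genome, defined as an alignment of at least 95% identity over at least 50% of the width. The region 2140.2 kb from Cdh20 was among these 5.

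Of the 10 members with the highest fold, 6 had a near-identical copy or a mitochondrial match. The 3 highest folds belonged to regions that align to the mitochondrial genome, an organelle genome that carries no nucleosomes. The first, chr5:60042656-60043143 between Pcdh7 and G6pd2, had fold 31.4 (28.8 in replicate 1 and 29.5 in replicate 2), with 97.9% identity over 383 bases. Another, chr6:9889882-9890222 between Nxph1 and Ndufa4, had fold 28.6 (26.6 and 24.7), with 95.5% identity over 310 bases. The next, chr12:97061377-97061851 between Flrt2 and Galc, had fold 27.3 (26.03 and 25.6), with 99.7% identity over 365 bases. Both libraries and the older list held all 3, and the regions on chromosomes 6 and 12 align to overlapping stretches of the mitochondrial genome. Over all autosomes 25 regions had such a match of at least 100 bases, 5 of them among the 10 highest folds. How many of these reads come from mitochondrial DNA was not tested.

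Near-identical copies were about as frequent among weak as among strong members, with 15 of 82 in the highest fold quartile and 14 of 83 in the lowest. In all, 45 members (13.7%, 10.2 to 17.9) had one, against 94 of 4266 (2.20%) intergenic regions within 100 kb. That nearer class holds no region within 1 kb of a start, while 39 members lie that close to a noncoding one. Of the 290 members away from every start, 24 (8.28%, 5.37 to 12.1) had a copy. At 11 of the 45 the copy lay within 1 kb of a protein-coding start that had a promoter region of its own, and 8 of the 11 lay within 1 kb of the start of an annotated processed pseudogene, a gene made by copying an mRNA back into DNA. At Gm7895 the copy was centred 495 bp from a start of the phosphatase gene Ppm1b. The member there had fold 25.7 (23.4 in replicate 1 and 21.8 in replicate 2). Gm5819, a copy of Unkl, held one of fold 19.4 (17.2 and 16.8). Gm9892, a copy of the translation initiation factor gene Eif2s2, held one of fold 13.9 (11.7 and 12.2), Gm9923, a copy of the ribosome rescue factor gene Hbs1l, one of fold 11.8 (12.6 and 7.94), and Cbfa2t2-ps1, a copy of the corepressor gene Cbfa2t2, one of fold 10.9 (10.5 and 8.24). Some of them were also among the members farthest from any coding start: Cbfa2t2-ps1 lay 1577 kb from G6pd2, and Gm9726, a copy of Lysmd1 with fold 9.80 (9.50 and 8.55), lay 1763 kb from Flrt2. The median fold of the 11 was 10.2 and their median GC content at the summit 59.7%, against 49.3% over all members. Whether the reads come from the copy or its source was not tested. The remaining regions among the 10 highest folds were chr8:20122134-20122613 at the start of the pseudogene Gm21769, of fold 25.7 (24.9 and 18.9) and with a near-identical copy, chr4:28176769-28177108 on the side of the ephrin receptor gene Epha7, of fold 23.0 (18.9 and 20.5), chr2:39372951-39373640 between Ppp6c and Lrp1b, of fold 16.5 (15.01 and 14.4), and a pair at lincRNA starts described below.

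The T cell receptor alpha variable array on chromosome 14, between Olfr1507 and Dad1, held 16 members, 15 of them with a near-identical copy. Their median fold was 6.12, both lists held 1 of 16 and neither held 12. This array rearranges in T cells, and no lymphoid marker promoter had a region. Without the members that have a copy, 284 regions remained, with a median fold of 7.31 and both lists holding 150 (52.8%).

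Starts of noncoding genes were a further group. Within 1 kb of one lay 39 members, 13 at processed pseudogenes, 13 at T cell receptor variable genes or pseudogenes and 9 at lincRNAs, long intergenic noncoding RNAs. The lincRNA starts were led by BC002059 (chr17:16951207-16951680), of fold 19.8 (15.9 in replicate 1 and 18.3 in replicate 2), Gm5165 (chr17:17234356-17235024), of fold 18.7 (17.2 and 16.9), and Gm26901 (chr1:7397321-7398497), of fold 15.7 (13.9 and 15.8). The median of the 9 was 13.4. The BC002059 and Gm5165 regions align over 100% of their width to overlapping stretches elsewhere on chromosome 17. Their identities there, 93.4% and 92.9%, fall below the 95% set for a near-identical copy. The 290 members away from every start had a median fold of 7.24.

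**Figure D2:**
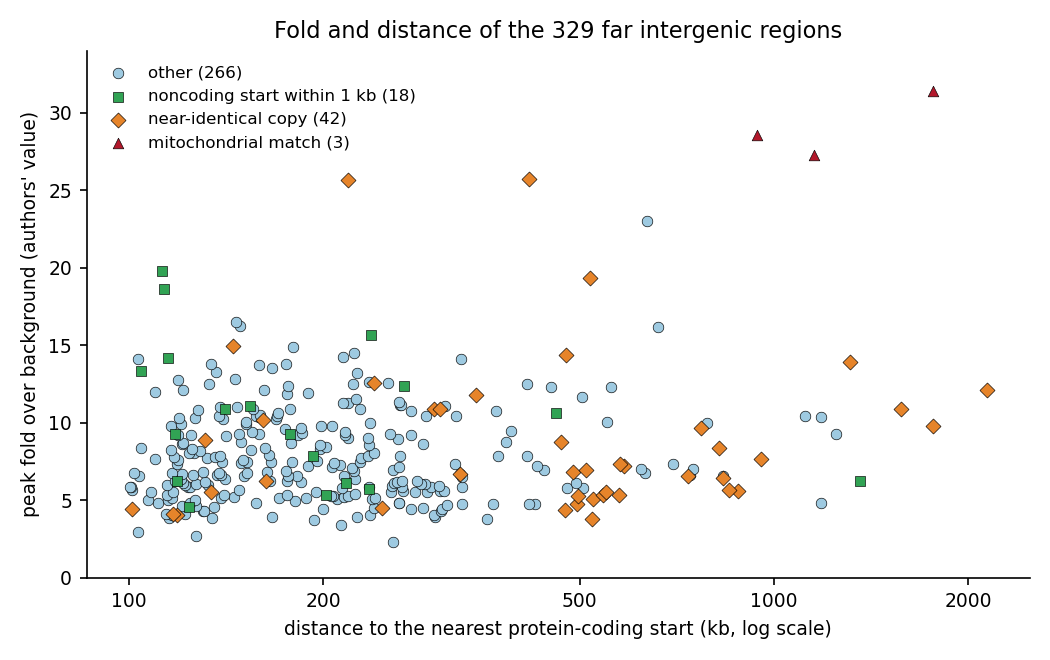
Fold of each of the 329 far intergenic regions against its distance to the nearest protein-coding start (kb, log scale), with marks for mitochondrial matches, other near-identical copies, other noncoding starts within 1 kb and the rest. The 3 mitochondrial matches sit at the top, between 27.3 and 31.4, and most of the rest lie lower, around the median of 7.31.

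With midpoints at most 50 kb apart, 194 members (59.0%, 53.4 to 64.3) had another member as a neighbour, against 69.0% of intergenic regions within 100 kb, which lie more densely. The median gap was 112 kb between members and 62.1 kb between the nearer regions. The nearer regions had the higher share in each alternative tried except the upper 50% by fold, with 43.2% of members against 41.6%. The members with a neighbour formed 57 clusters, and 24 clusters held 3 or more members, 128 in all. The 5 largest held 54 members (16.4%). Both replicates held 37 of the 54, neither held 10, none had a near-identical copy, and the older list held all.

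The largest cluster held 17 members over 177 kb, chr13:111911657-112088842, between Map3k1, a kinase of the MAP kinase cascade, and Ankrd55. Its members lay 103 to 280 kb from the Map3k1 start. Its strongest, chr13:111911657-111912689, had fold 14.1 (12.6 in replicate 1 and 13.6 in replicate 2), and its weakest, chr13:111936119-111936480, had 2.71 and was in neither library's list. The next strongest, chr13:112073203-112074409, had 11.3 (10.9 and 10.5), so the libraries ranked the pair alike. The cluster had a median fold of 6.41, 12 of 17 members in both lists, a GATA match at 12 summits and a KLF match at 9. Map3k1 had a promoter region of fold 5.33, and Ankrd55 had none.

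The next held 13 members over 123 kb, chr5:64487531-64610852, between Tbc1d1, a Rab GTPase-activating protein, and Klf3, a CACCC-binding repressor that is switched on by KLF1. They lay 193 to 315 kb from the Klf3 start and 189 to 312 kb from the Tbc1d1 start. The strongest, chr5:64567593-64568600, had fold 12.6 (12.1 in replicate 1 and 10.99 in replicate 2), followed by chr5:64526447-64527009 at 10.9 (9.42 and 10.2) and chr5:64505106-64505599 at 9.79 (9.23 and 9.76). Both lists held 10 of 13, and summits had a GATA match at 8 and a KLF match at 6. A further 3 members outside the cluster raised the count beside Klf3 to 16, the nearest 111 kb from its start. Klf3 had a promoter region of fold 7.84 and Tbc1d1 one of 8.39.

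The remaining 3 of the 5 held 8 members each. Between Ppargc1a, a coactivator of mitochondrial biogenesis, and Dhx15, an RNA helicase of splicing, they spanned 126 kb (chr5:51824787-51950555) with folds of 4.43 to 11.1, and 7 of 8 summits had a GATA match. Their strongest, chr5:51894230-51894527, had fold 11.1, with 10.6 in replicate 1 and 9.74 in replicate 2. Ppargc1a had no promoter region and Dhx15 had one of fold 11.9. Between Camk1g, a calmodulin-dependent kinase, and Plxna2, a semaphorin receptor, they spanned 100.1 kb (chr1:193599070-193699187) with folds of 3.95 to 9.20, and neither gene had a promoter region. The strongest, chr1:193644253-193644971, had fold 9.20 (8.46 in replicate 1 and 8.32 in replicate 2). Between Runx1, which is needed to form blood stem cells and later acts in megakaryocytes and lymphocytes, and Setd4, a methyltransferase, they spanned 74.0 kb (chr16:93123738-93197774), 298 to 371 kb from the nearest Runx1 start. Here 2 members stood above the rest, chr16:93196941-93197774 at 10.8 (10.5 and 9.64) and chr16:93147530-93148083 at 10.4 (9.95 and 9.28), while the other 6 had 4.03, 5.60, 4.29, 4.44, 4.70 and 4.75 in order of position. Runx1 had a promoter region of fold 8.83.

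**Figure D3:**
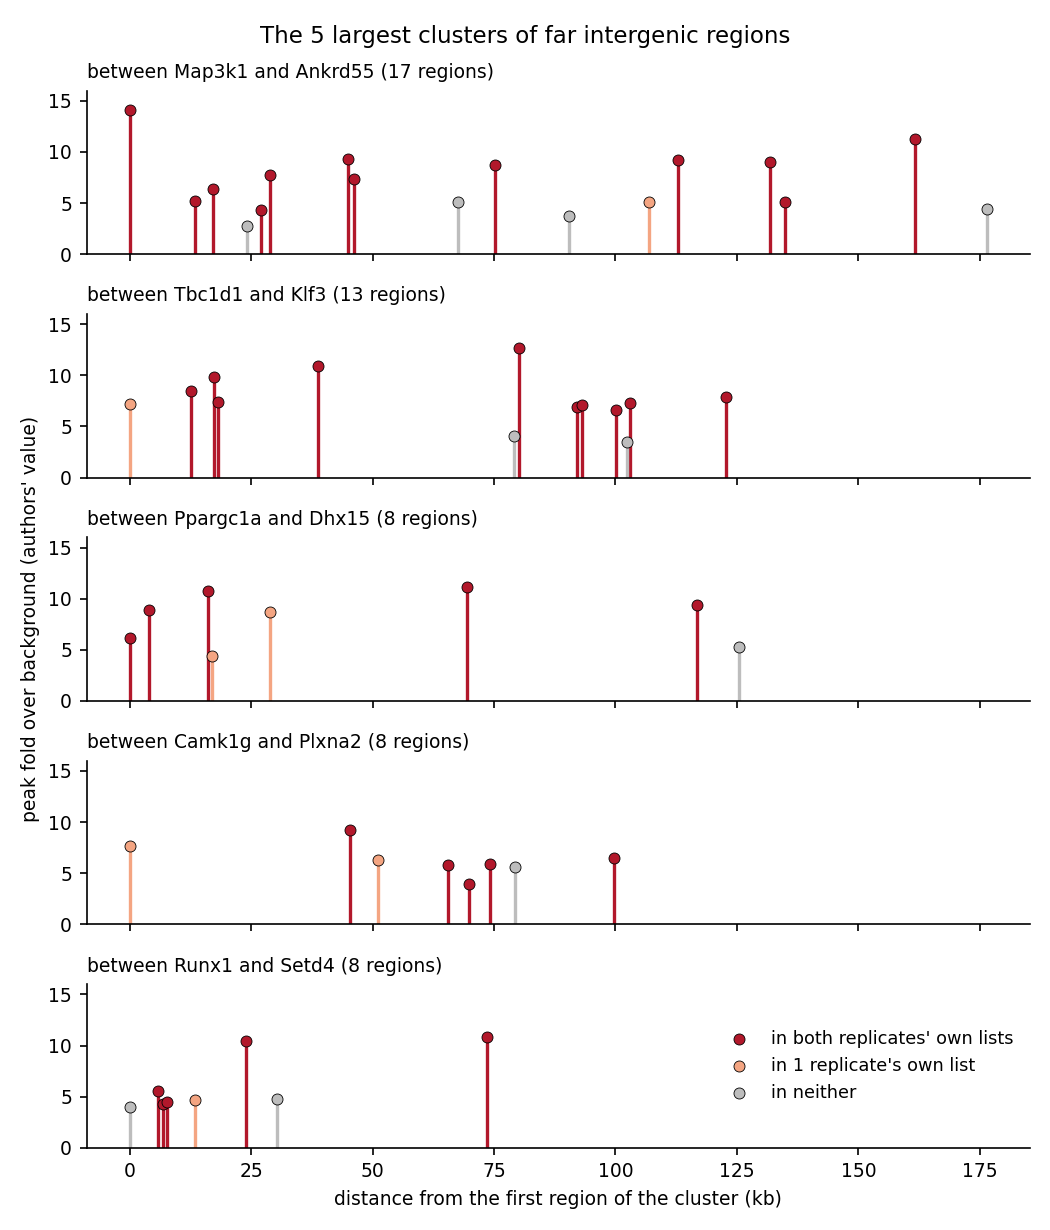
Members of the 5 largest clusters, each drawn at its distance from the first member (kb) with its fold in the series list as height and a colour for the libraries' lists that hold it. Red members are in both lists, 37 of 54, and grey ones, in neither, are 10.

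Smaller clusters lay beside other genes. Between Mbnl1, a splicing regulator, and P2ry1, an ADP receptor, 6 members included chr3:60784576-60786075, of 1500 bp and fold 12.1, whose −log10 p of 218 was the highest of any member without a mitochondrial match. Between Ube2e3 and Itga4, the integrin chain of erythroblast adhesion, 5 members had folds of 5.83 to 13.8, all with a GATA match. Between Slc30a5 and Pik3r1, a PI3-kinase subunit that acts below KIT and the erythropoietin receptor, 5 members within 22.7 kb had folds of 4.64 to 12.8, again all with a GATA match. Not every cluster was like this. Between Cdkn2b and Dmrta1, 5 members had folds of 5.34 to 10.2, with a GATA match at 2 and 1 in both lists. A cluster of 7 between Olfr1507 and Dad1 also had a GATA match at 2 and 1 member in both lists. In clusters of 2 or more a GATA match was found at 133 of 194 summits (68.6%, 61.5 to 75.02), and in single members at 70 of 135 (51.9%, 43.1 to 60.5). Members of a cluster are not independent, and the intervals ignore this. The groups also differed in near-identical copies (22 clustered and 23 single members) and CTCF matches (4 and 12). All 3 mitochondrial matches were single members. The part of these differences in the GATA shares was not tested. Median folds were 7.15 in clustered and 7.62 in single members.

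The genes on each side were read against lists of erythroid and other genes, chosen with earlier results of these data known. Of 329 members, 34 (10.3%, 7.26 to 14.1) flanked an erythroid transcription regulator, against 68 of 4266 (1.59%) intergenic regions within 100 kb. A flanking gene need not be the nearest. All members at Mycn, Nfia, Klf13 and Mllt3, and some at Klf3, lay nearer to the coding gene on their other side. These 34 stood beside 8 of 44 such autosomal genes, with 16 at Klf3, 5 at Mycn, 4 each at Cited2 and Nfia, 2 at Klf13 and 1 each at Ikzf2, Mllt3 and Zfp36l2. Mycn counts in a second list: 14 members (4.26%) flanked a stem or early progenitor gene (8 at Runx1, 5 at Mycn and 1 at Lmo4), against 0.54%, and 30 (9.12%) flanked 13 neural or other developmental regulators, against 0.94%. The remaining lists had small shares in members and in nearer intergenic regions, with 95% intervals that overlap. They were membrane, haem and iron genes (1 member, at Cd24a, 0.30%, against 1.62%), erythropoietin, KIT and glucocorticoid signalling (2, at Kit and Irs2, 0.61%, against 1.196%), myeloid and lymphoid genes (1, at Gata3, 0.30%, against 0.82%) and megakaryocyte, mast cell and basophil genes (0, against 0.16%). Members in the same stretch share their flanking genes, so they are not independent, and the intervals ignore this. No share over all autosomal regions was counted, nor the share of all coding genes that flank a member. Genes with long intergenic neighbours have more eligible sequence, and its part in these counts was not tested.

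Mycn, a MYC family transcription factor, had the highest median fold, 13.2, of these 8 erythroid regulators. Its 5 members lay between Fam49a and Mycn, 369 to 520 kb from the Mycn start and nearer to Fam49a, at 159 to 309 kb. The 3 strongest were chr12:12420870-12421308 with fold 13.75 (13.98 in replicate 1 and 10.5 in replicate 2), chr12:12428734-12429321 with 13.5 (12.8 and 12.0) and chr12:12487852-12488677 with 13.2 (12.9 and 11.7). The other 2 had 11.1 (9.70 and 9.84) and 7.85 (6.78 in replicate 1 and absent from replicate 2's list). A GATA match was found at 4 of 5, and Mycn had no promoter region.

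Nfia, a nuclear factor I member that favours the erythroid over the granulocytic fate, had 4 members 279 to 333 kb from its start. All 4 lay nearer to Tm2d1, at 131 to 185 kb. Tm2d1 had a promoter region of fold 15.4 and Nfia one of 11.5. Those at chr4:98215077-98215626 (fold 10.5, with 9.98 in replicate 1 and 9.59 in replicate 2) and chr4:98189613-98190878 (9.69, with 10.005 and 8.45) were in both lists, and those of fold 6.21 and 3.84 were in neither. Cited2, which binds the coactivators CBP and p300, had 4 members at 1185 to 1359 kb, all with a GATA match. The farthest, chr10:16363885-16364430 at 1359 kb, had fold 6.24 and was in replicate 2's list alone (5.80). The strongest of them, chr10:16538461-16538862, had fold 10.4 (8.85 and 10.2), and 2 of the 4 were in both lists. Klf13, another CACCC-binding factor, had chr7:64048435-64050101 of fold 8.34 (7.92 and 8.54) at 110.4 kb, with a weaker neighbour of fold 2.96. Both lay nearer to Trpm1, at 104.6 and 103.4 kb.

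Kit, the stem cell factor receptor of early erythroid progenitors, had a single member, chr5:75460074-75460944, 114 kb from its start on the side of Pdgfra. An element at this distance before the Kit start is known to be bound by GATA factors and to loop to the promoter. Its fold was 6.00 in the series list and 6.64 in the older list, and neither library's own list held it. Within 100 bp of its summit lay a GATA match and a CTG and GATA pair, and the pair does not fall within the 101 bases printed above. The Kit promoter had no region in the series list. Members beside Ikzf2 (fold 6.20, with 6.69 in replicate 1 and 5.45 in replicate 2), Mllt3 (6.78), Zfp36l2 (5.68), Irs2 (4.73), Cd24a (4.30) and Lmo4 (6.24) were single, and the last 5 were in neither list. The Mllt3 member lay 438 kb from the Mllt3 start and nearer to Slc24a2, at 138 kb.

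Promoter regions of the nearest coding genes were counted next. The 329 members had 171 different nearest protein-coding genes, of which 77 (45.03%, 37.4 to 52.8) had a promoter region, against 46.9% of all autosomal protein-coding genes and 67.7% (65.9 to 69.4) of the 2724 genes nearest to intergenic regions within 100 kb. Among the developmental genes Bmp2, a growth factor, had 3 members 121 to 137 kb away, the strongest of fold 13.3 (13.1 in replicate 1 and 11.6 in replicate 2), and no promoter region. Fgf10, also a growth factor, had 4 members over 500 kb away, but their nearest coding gene was Nnt, at 125 to 176 kb. The strongest had fold 12.4 (12.3 and 10.7), and neither Fgf10 nor Nnt had a promoter region. Of the same list, Epha7, with members of fold 23.0 and 12.6, had a promoter region of fold 13.6. Sox5, with 3 members, had a promoter region of fold 5.44, and the remaining flanked genes of the list had none.

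Consensus matches were counted on both strands within 100 bp of the strongest summit. A GATA match was the letters GATA after A or T and before A or G, and the pair was CTG and such a match with 7, 8 or 9 bases between, counted under GATA too. Over all autosomal summits 33.1% held a GATA match, 9.44% a pair, 29.4% a KLF match and 7.03% a CTCF match. GATA was matched at 203 far intergenic summits (61.7%, 56.2 to 66.98), against 43.4% (41.9 to 44.9) of intergenic summits within 100 kb, 54.5% (53.2 to 55.7) of intronic and 16.7% of promoter summits. In the reported setting the interval of the far members overlapped none of these. With a limit of 200 kb it was 52.7 to 68.1, and on the conservative list 53.9 to 64.8, both overlapping the intronic interval above. The same held with only protein-coding genes as genic (53.6 to 63.1). The intronic share was not recomputed in these settings. Windows 1 kb to the side, in no region, matched in 36.2% beside members, against 29.0% beside nearer intergenic regions. The nearest match lay a median of 21 bp from the summit, and within 30 bp of it in 136 members.

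The pair was matched at 73 members (22.2%, 17.8 to 27.1), against 12.3% (11.3 to 13.3) of nearer intergenic and 17.8% (16.9 to 18.7) of intronic summits, whose interval overlaps that of the members, and in 1.96% of the windows beside members. A spacing of 8 bases was found in 38 members, 7 in 22 and 9 in 16. The windows printed above hold examples, such as those between Map3k1 and Ankrd55 and between Runx1 and Setd4. Members with a pair were wider and more often shared: their median width was 663 bp, and both lists held 52 of 73 (71.2%). Of members in neither list 8 of 102 (7.84%) had a pair, against 52 of 168 (30.95%) in both lists, and these groups also differ in fold. Of the 45 members with a near-identical copy 0 had a pair, with a 95% upper bound of 7.87%.

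KLF was CCACACCC, CCACGCCC, CCCCACCC or CCCCGCCC and was matched at 55 members (16.7%, 12.8 to 21.2), against 18.4% of nearer intergenic and 39.8% of promoter summits, and in 3.59% of the windows beside members. In the 5 largest clusters 17 of 54 had one, 15 of them in the first 2. The NF-E2 consensus, TGCTGACTCA or TGCTGAGTCA, an element of erythroid and megakaryocytic enhancers, was matched at 8 members (2.43%), against 2.44% of nearer intergenic summits.

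CTCF matches were less frequent in far members than in nearer intergenic or intronic regions. One was found at 16 members (4.86%, 2.80 to 7.78), against 14.3% (13.3 to 15.4) of intergenic summits within 100 kb, 9.95% (9.22 to 10.7) of intronic and 2.46% of promoter summits, and in 0 of 613 windows beside members. The 5 largest clusters had 0 in 54. Of the 16, 11 were in neither library's list and 3 were in both, and their median fold was 6.41. The strongest with no near-identical copy was chr3:60762777-60763203 between Mbnl1 and P2ry1, of fold 10.2. Only 4 members had both a GATA and a CTCF match, and 86 had none of GATA, KLF and CTCF.

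**Figure D4:**
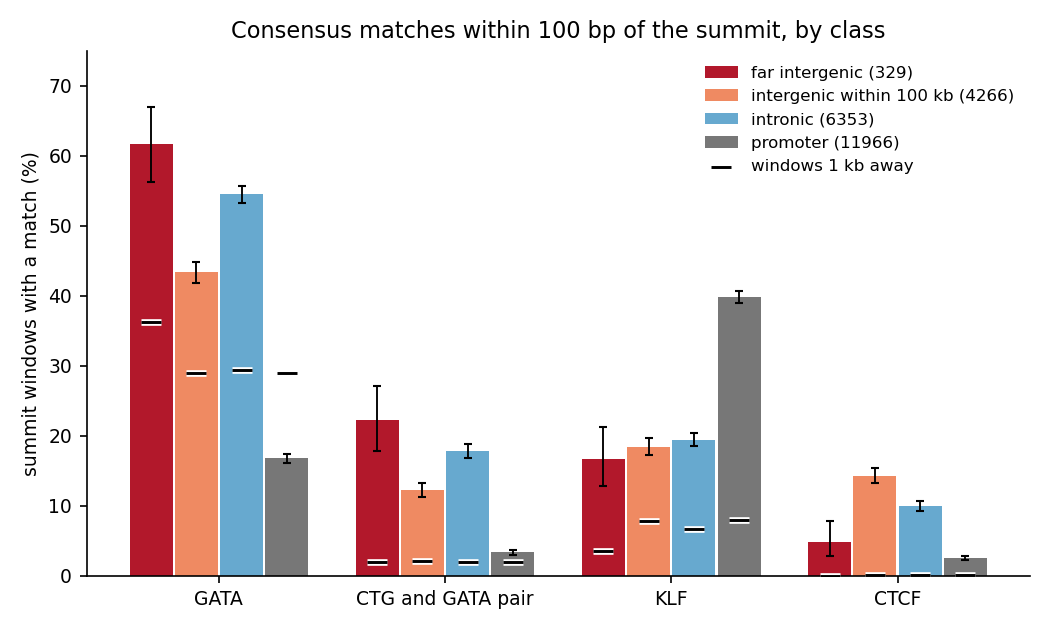
Share of summit windows with each consensus match (bars, %) in far intergenic regions and in the other classes, with 95% binomial intervals, and the share in windows 1 kb away (short lines). The GATA bar of the far intergenic regions is the highest of its group at 61.7%, and their CTCF bar, 4.86%, stands below those of nearer intergenic and intronic regions.

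Both shares varied over distance within intergenic regions. GATA was matched in 43.2% of those 1 to 10 kb from a protein-coding start, 41.7% at 10 to 50 kb, 52.1% at 50 to 100 kb, 62.8% (54.9 to 70.2) at 100 to 200 kb, 63.7% (54.6 to 72.2) at 200 to 500 kb and 51.2% (35.1 to 67.1) beyond 500 kb. CTCF was matched in 13.3%, 16.1%, 9.29%, 7.32%, 2.42% and 2.44% of the same bins. The last bin held 41 members, 23 of them with a near-identical copy. Median GC content at the summit was 51.2% in the first bin and 46.8% in the last, and its part in the shares was not tested.

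**Figure D5:**
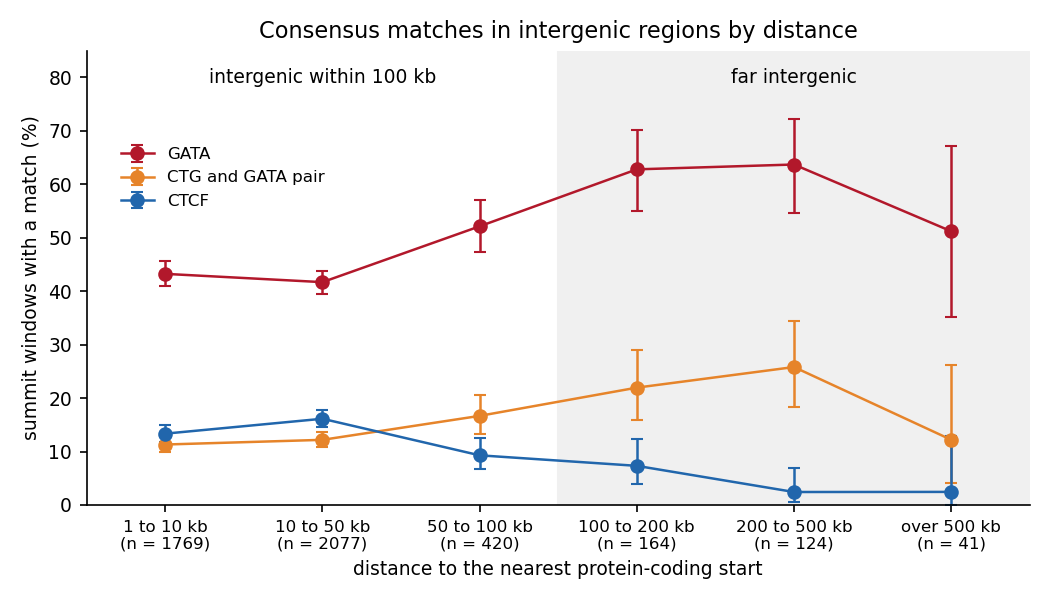
Share of intergenic summit windows with a GATA, a CTG and GATA pair and a CTCF match (%), by distance of the region to the nearest protein-coding start, with 95% binomial intervals. The far intergenic bins are shaded, and GATA is highest at 100 to 500 kb, where CTCF is at 7.32% and 2.42%.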

How the data were processed

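ATAC-seq of CFU-E was deposited as peak lists on mm10. Per the file listing, the authors deposited for each peak a score, a fold (ratio) over the caller's local background, a −log10 p and a summit. Aligner and peak caller: not given in the sources used here. Overlapping records of a list were merged into regions, and a region was placed by its midpoint against GENCODE M21. Lists were compared by overlap of at least 1 bp. Because the libraries stood about as close as parts of pooled reads (closer by the median, alike by SD in members), they were counted as 1 sample, and no test was made. Shares have exact Clopper-Pearson and medians order-statistic 95% intervals, which cover counting error only. Copies were searched with BLAST+ 2.17.0 at an e-value of 1e-10 (1e-05 for mitochondrial sequence). Scripts used Python 3.11.15, pandas 2.3.3, numpy 2.4.6, SciPy 1.17.1 and samtools 1.23.1, and were tested on simulated data. Regions were named by rule: the 10 highest folds, the 5 highest −log10 p, the 5 farthest, the 5 largest clusters (weaker members given by range), members beside genes of the first 4 lists and 3 on each side of the limit. Others, such as those beside Bmp2 and Fgf10 and at noncoding starts, were chosen after their values were seen. The members and lists were chosen with earlier results of these data known. Sex chromosomes were left out, except that promoter regions of marker genes were also looked up on chromosome X. Alternatives for distance, IDR score, fold, overlap, gap, window and library were tried.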

Additional observations from a re-analysis of the deposited data

How the results depend on the processing

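Of 116 values recomputed under 18 alternatives, 81 stayed within the interval or count limit of the reported value. The median fold exceeded that of intergenic regions within 100 kb in 14 of 14 alternatives, the median width in 12 of 14, and the GATA share in 15 of 15, while the CTCF share did in 0 of 15. With an IDR score of at least 830, the median fold was 8.93, the median width 586 bp, the share in both lists 72.1% and the share in the older list 99.6%. A limit of 50 kb gave 792 regions with GATA at 55.3% and CTCF at 7.95%, and a limit of 200 kb gave 165 with CTCF at 2.42%. Counting starts of every biotype left 31 regions, with a median fold of 9.20, a median width of 422 bp, 64.5% in both lists, 48.4% with a neighbour, GATA at 67.7% and CTCF at 0%. The upper 50% of all regions by fold held 155 members, with a median fold of 10.4, a median width of 624 bp, 83.9% in both lists, 99.4% in the older list, 43.2% with a neighbour and CTCF at 2.58%. An overlap of at least 50% of the region put 93.6% in the older list. Gaps of 25 and 100 kb gave 50.5% and 64.4% with a neighbour, and a window of 50 bp gave GATA at 52.6%. With 1 library's own list (without replicate 1 or without replicate 2) there were 193 to 213 members, a median fold of 8.55 to 8.64, a median width of 512 to 523 bp, 98.4% to 99.5% in the older list, 53.5% to 54.4% with a neighbour, GATA at 65.3% to 67.1% and CTCF at 2.07% to 2.35%. The share in both lists could not be given there. The cause of these moves was not tested. Leaving out mitochondrial matches, copies, noncoding starts or the T cell receptor array, alternatives chosen after seeing the data, moved no value outside its limits. No paired analysis was possible because the libraries form 1 group. Read depth is unknown, so weak members absent from a list may be undetected there.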
